A study of Mus musculus with 6 samples.

Results

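A set of 8 lineage transcription factors was examined in TKPTS cells, a mouse kidney proximal tubule cell line, after forced expression of one of them. The set held *Foxa1*, *Foxa2*, *Foxa3*, *Hnf4a*, *Hnf4g*, *Pax2*, *Pax8* and *Lhx1*, chosen by name and matched to the gene symbols of the table, where all 8 were found among 29595 genes. RNA was sequenced 24 h after transfection from 3 cultures that received pcDNA3.1-Hnf3a-Flag, a plasmid for Flag-tagged HNF3α (the older name of the *Foxa1* product), and from 3 that received the vector pcDNA3.1-Flag. The labels give the first group as HNF3alpha overexpression and the second as WT, called the Hnf3a and pcDNA groups here. Both groups were the same line, and both carried a plasmid. Routine culture of the line used a medium with serum and insulin. The paper's account of the sequencing does not name the medium during the 24 h after transfection. Its general culture methods moved transfected cells to serum-free medium with TGF-β1 added. Whether the sequenced cultures were treated so is not stated. The labels do not say how separate the cultures of a group were, so p-values measure the spread between these libraries, which may be technical. Each library averages transfected and untransfected cells, and fewer cells expressing a gene cannot be told apart from less RNA per cell. The libraries held 60473818 to 71154667 estimated counts, with about 4 counts taken to stand for 1 sequenced fragment, and the detection floor was set at 12 counts.

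FOXA proteins bind DNA through a forkhead domain and can open closed chromatin in the endoderm and in tubule epithelia. HNF4A and HNF4G are nuclear receptors, and HNF4A drives the mature proximal tubule programme of transport and metabolism. PAX2 and PAX8 are paired-domain factors that specify the nephric lineage, and LHX1 is a LIM-homeodomain factor needed for the nephric duct and for nephron patterning.

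The start-site windows of *Foxa1* and *Pax8*, the only members with more than trace expression here, are shown first (RefSeq, GRCm38.p6, minus strand, 250 bases before to 50 after the start). They lie at chr12:57546062-57546361 and chr2:24475550-24475849. The *Foxa1* window falls inside the listed span of the gene (chr12:57540628-57546916), so it is not upstream of the gene as counted. Capitals mark a match to a forkhead core (TGTTTAC and TGTTTGC, with TATTTAC and also TATTTGC, on either strand).
Foxa1 start: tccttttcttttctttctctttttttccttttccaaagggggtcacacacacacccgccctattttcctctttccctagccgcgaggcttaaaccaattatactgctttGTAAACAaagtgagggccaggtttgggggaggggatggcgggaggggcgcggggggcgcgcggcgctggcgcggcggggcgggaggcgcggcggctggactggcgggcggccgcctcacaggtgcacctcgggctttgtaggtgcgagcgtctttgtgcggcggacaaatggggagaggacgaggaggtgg
Pax8 start: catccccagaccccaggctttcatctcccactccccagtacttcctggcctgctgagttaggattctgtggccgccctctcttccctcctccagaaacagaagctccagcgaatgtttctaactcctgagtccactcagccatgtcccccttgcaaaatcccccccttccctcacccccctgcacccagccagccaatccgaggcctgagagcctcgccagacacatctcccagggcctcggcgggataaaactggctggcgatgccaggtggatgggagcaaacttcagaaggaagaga
The core was found in 1 of 12 windows of 7 members, that of *Foxa1*, and in 13.5% of 32851 windows of all genes. A match is a description of letters and not a binding site. *Hnf4g* had no window.

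Only *Pax8* and *Foxa1* were above 1 FPKM (fragments per kilobase of transcript, scaled to library size) in cells that had the vector. In the pcDNA group *Pax8* stood at 29.2 ± 1.98 FPKM (SD, n = 3) and *Foxa1* at 9.66 ± 0.259 FPKM, with no overlap between them. The other 6 were below 1 FPKM in all libraries. There *Foxa2*, *Hnf4g*, *Foxa3*, *Pax2*, *Hnf4a* and *Lhx1* followed in that order of mean level, and each overlapped the next in its range. In the Hnf3a group *Foxa1* came first, then *Pax8*, each clear of the one after it. *Foxa2* came next by a narrow margin. Its lowest library had 0.174 FPKM and the highest of *Pax2* 0.171 FPKM. *Pax2* led the remaining 5, which again overlapped from each to the next.

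**Figure D1:**
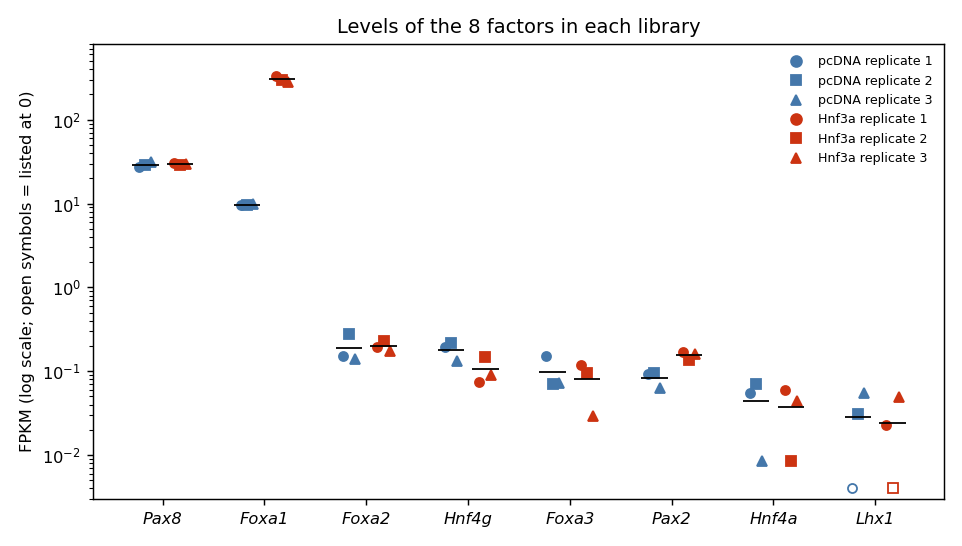
FPKM of the 8 members in each of the 6 libraries on a log axis, one point per library, coloured by group, with lines at the means and open symbols for libraries listed at 0. *Foxa1* moves from 9.66 FPKM in the pcDNA group to 304.6 FPKM in the Hnf3a group, *Pax8* has 29.2 and 29.7 FPKM, and the other 6 stay below 1 FPKM.

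*Foxa1* was the transfected gene and serves as the check of the labels. It lies at chr12:57540628-57546916 on the minus strand (ENSMUSG00000035451, 2 exons). Its counts were 80803, 77904 and 69508 in Hnf3a replicates 1 to 3 and 2134, 2330 and 2416 in pcDNA replicates 1 to 3. All Hnf3a libraries stood far above all pcDNA libraries. The log2 fold change was 4.97 (SE 0.067, 95% interval 4.82 to 5.12), a 31.3-fold rise (edgeR quasi-likelihood test, Benjamini-Hochberg adjusted p = 5.99e-10). Transcripts of the plasmid and of the chromosomal gene cannot be told apart in a gene count. By FPKM, *Foxa1* moved from the 71.4th to the 99.4th percentile of the genes tested. Gene coordinates here are those of GRCm38.

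*Foxa1* was the only one of the 7 tested members past the adjusted threshold. Over all 17824 genes tested, 3.17% were called, 1.04% higher and 2.13% lower. As the transfected gene, *Foxa1* met this and the next 2 criteria by design. Among the other tested members only *Pax2* had an unadjusted p under 0.05 by edgeR, against 13.5% of all genes. *Pax2* was also the only one of them with groups that did not overlap, against 18.9% of all genes. It was higher in the Hnf3a group, as were 9.12% of all genes with no overlap, while 9.81% were lower. The median log2 fold change was 0.016 over the 7 members, with the imposed rise of *Foxa1* counted, and 0.00085 over all genes tested. With *Foxa1* counted, 4 of the 7 lay above 0 and 3 below. *Lhx1* was too low to enter the test.

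*Foxa2* (ENSMUSG00000037025, chr2:148042877-148046969), which shares the forkhead domain and acts with FOXA1 in endoderm, was barely detected. Its counts were 34, 44 and 31 in the Hnf3a group and 25, 49 and 25 in the pcDNA group. The highest library, at 49 counts, carried only the vector, and the ranges overlapped. *Foxa2* had a log2 fold change of 0.056 (SE 0.39, 95% interval −0.78 to 0.89, edgeR adjusted p = 0.98), so changes inside that interval could not be resolved at this depth. *Foxa3* (ENSMUSG00000040891, chr7:19013284-19023538), a further paralogue and chiefly a liver and gut factor, had counts of 18, 16 and 5 against 22, 11 and 11. These lie around the floor of 12 counts, and the groups overlapped. Its log2 fold change was −0.27 (SE 0.64, 95% interval −1.66 to 1.11, edgeR adjusted p = 0.922). Both paralogues had at most 44 counts in Hnf3a libraries that held at least 69508 *Foxa1* counts, so few *Foxa1* reads were assigned to them.

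*Hnf4a* (ENSMUSG00000017950, chr2:163506808-163572905), the main nuclear receptor of proximal tubule identity, was near the floor. Its counts were 22, 4 and 16 in the Hnf3a group and 19, 25 and 4 in the pcDNA group, which is 0.0373 ± 0.0263 and 0.0446 ± 0.0321 FPKM. Each group had 1 library below the floor, and the groups overlapped. The difference on the log2 scale was −0.26 (SE 0.74, 95% interval −1.86 to 1.34, edgeR adjusted p = 0.939). *Hnf4g* (ENSMUSG00000017688, chr3:3508030-3658052), a paralogue with overlapping targets in gut and kidney, had counts of 15, 32 and 18 against 35, 42 and 26. The pcDNA libraries tended to be higher, but the ranges overlapped. Its log2 fold change was −0.76 (SE 0.43, 95% interval −1.69 to 0.16, edgeR adjusted p = 0.498).

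*Pax8* (ENSMUSG00000026976, chr2:24420560-24475599) was the member the line expressed most in cells with the vector. Its counts were 13468, 13838 and 13242 in the Hnf3a group and 11256, 12797 and 13855 in the pcDNA group. The ranges overlapped, and the highest and the lowest library both carried the vector. In FPKM the groups stood at 29.7 ± 0.879 and 29.2 ± 1.98. The estimated log2 fold change was 0.016 (SE 0.045, 95% interval −0.081 to 0.113, edgeR adjusted p = 0.936). The interval of *Pax8* was the narrowest of the 6 members that did not pass.

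*Pax2* (ENSMUSG00000004231, chr19:44756045-44837871), which overlaps PAX8 in function in the early nephric lineage, had low counts of 69, 59 and 65 in the Hnf3a group and 35, 38 and 26 in the pcDNA group. Every Hnf3a library was above every pcDNA library, at 0.157 ± 0.0179 against 0.0841 ± 0.0179 FPKM. The log2 fold change was 0.88 (SE 0.31, 95% interval 0.22 to 1.54), 1.84-fold, with an edgeR p of 0.0130 that did not pass adjustment (adjusted p = 0.191, and 0.177 to 0.377 over 15 alternatives). Fibroblast markers also differed between these libraries. Their summed level was 0.228 to 9.45 FPKM in the Hnf3a group, lowest in replicate 1, and 0.101 to 0.169 FPKM in the pcDNA group. By edgeR 0 of 6 tested were called, against 3.17% of all genes. An unadjusted p under 0.05 was found for 5, against 13.5% of all genes. Their median log2 fold change was 3.83, with all 6 above 0. Their part in the *Pax2* values was not tested.

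*Lhx1* (ENSMUSG00000018698, chr11:84518284-84525535) had counts of 7, 0 and 15 in the Hnf3a group and 0, 10 and 17 in the pcDNA group. In each group 1 library was above the floor, and the level was 0.0240 ± 0.0248 against 0.0284 ± 0.0273 FPKM. It was left out by the filter on low counts, and in the fit without that filter its log2 fold change was −0.31 (SE 1.25, edgeR adjusted p = 0.979).

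**Figure D2:**
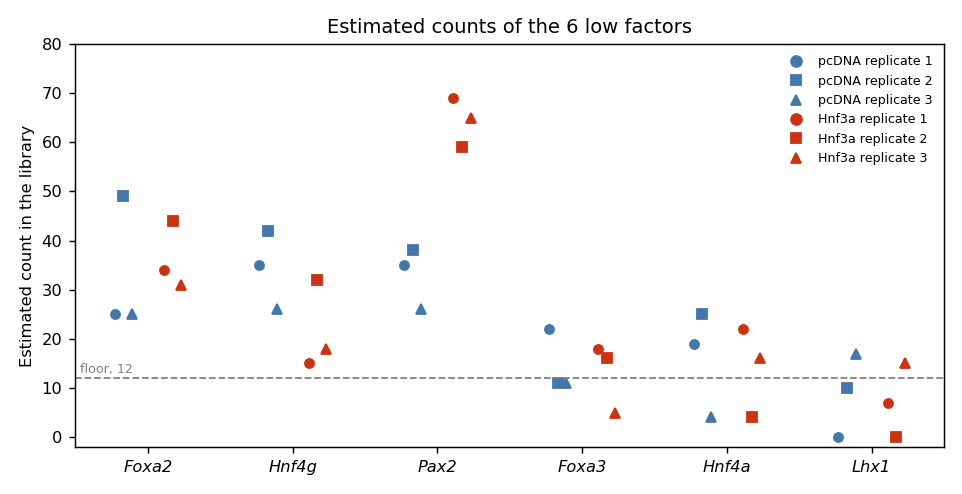
Estimated counts of the 6 low members in each library, with the floor of 12 counts as a dashed line. *Pax2* is the only one whose Hnf3a libraries, at 59 to 69 counts, all lie above its pcDNA libraries, at 26 to 38 counts.

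**Figure D3:**
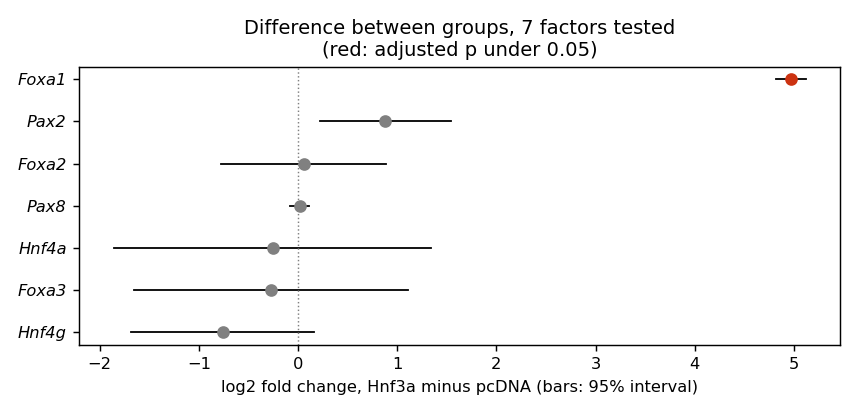
Log2 fold change of the 7 tested members, Hnf3a minus pcDNA, with 95% intervals. *Foxa1* lies at 4.97, *Pax2* at 0.88 with an interval from 0.22, and the intervals of the other 5 include 0.

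Some genes lie on or close to the members. Antisense genes overlap some of them, with *Hnf4aos* over *Hnf4a*, *1700039E22Rik* over *Pax2* and *Gm13415* over *Pax8*. *Hnf4aos* had 4 counts at most and *1700039E22Rik* 3. *Gm13415* had 70, 99 and 62 counts in the Hnf3a group and 91, 45 and 63 in the pcDNA group, against 11256 or more for *Pax8*. Of the genes within 10 kb, 0 were called, and *Foxa1*, *Foxa2* and *Hnf4g* had none. *R3hdml*, next to *Hnf4a*, had 24, 23 and 24 counts against 10, 0 and 9 (log2 fold change 1.79, edgeR adjusted p = 0.319).

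The wider set of 26 renal lineage factors was then counted. The table held 23 of them, of which 17 were tested, 14 lay above 1 FPKM, and 1 was called, *Ehf*, an ETS factor of epithelia that fell. Over all genes tested, 3.17% were called, 2.13% of them lower in the Hnf3a group as a share of all genes. *Ehf* stood at 16.5, 15.7 and 15.4 FPKM in the Hnf3a group and 19.8, 20.9 and 21.0 FPKM in the pcDNA group, with no overlap. Its log2 fold change was −0.38 (SE 0.039, edgeR adjusted p = 6.13e-05). The other 16 tested did not pass, and 5 of the 17, *Ehf* included, had an unadjusted p under 0.05, where 13.5% of all genes did. Of those, *Irx3* had 9.36 FPKM in the Hnf3a group and 7.86 FPKM in the pcDNA group (log2 fold change 0.24, edgeR adjusted p = 0.0677). *Mecom* had 3.57 and 3.15 FPKM (log2 fold change 0.17, edgeR adjusted p = 0.0711). *Eya1* had a log2 fold change of 0.17 (edgeR adjusted p = 0.197) and *Tfcp2l1* one of −0.10 (edgeR adjusted p = 0.252). *Grhl2*, which maintains epithelial junctions, had 10.8 and 11.2 FPKM and *Tfap2a* 9.19 and 9.28 FPKM, in the Hnf3a and pcDNA groups. The median log2 fold change of the list was −0.033.

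Of 18 liver and gut endoderm factors, *Hnf4a* and *Hnf4g* included, 16 were tested. By edgeR 0 were called, against 3.17% of all genes tested. An unadjusted p under 0.05 was found for 2, against 13.5% of all genes. *Sox17* had 23.1 and 22.1 FPKM in the Hnf3a and pcDNA groups, *Klf5* 12.2 and 12.1 FPKM, *Sox9* 4.73 and 4.91 FPKM, and *Cdx2*, an intestinal homeobox factor, 3.04 and 2.67 FPKM. The list's median was −0.057.

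Genes that depend on HNF4A in the proximal tubule were mostly low, as *Hnf4a* was. Of 24 listed, 19 were in the table, 9 were tested, and only *Ass1*, of arginine synthesis, was above 1 FPKM, at 5.21 and 6.05 FPKM (log2 fold change −0.22, edgeR adjusted p = 0.202). None was called by edgeR, against 3.17% of all genes tested. An unadjusted p under 0.05 was found for 2, against 13.5% of all genes. *Gatm* had 0.989 and 0.902 FPKM, *Ttr* 0.722 and 0.713 FPKM. The median was −0.032.

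Of 14 targets and partners of PAX2 and PAX8, 10 were tested and 0 were called by edgeR, with 2 at an unadjusted p under 0.05. Over all genes tested, 3.17% were called and 13.5% had an unadjusted p under 0.05. *Paxip1*, a PAX partner of the histone methylation machinery, had 8.56 and 8.37 FPKM, *Cdh16*, the kidney cadherin, 2.75 and 2.47 FPKM, and *Eya1*, a transcriptional coactivator, 2.66 and 2.36 FPKM. The median was 0.056. Of 8 LHX1 cofactors 7 were tested and 0 were called by edgeR, with 1 at an unadjusted p under 0.05. The same shares of all genes, 3.17% and 13.5%, apply here. *Rlim* had 15.5 and 16.1 FPKM, *Ldb1*, which bridges LIM factors, 13.9 and 13.7 FPKM, *Lmo4* 12.3 FPKM in the Hnf3a group, and *Ssbp4* 11.7 and 10.1 FPKM. The cofactors named were present at levels far above that of *Lhx1*, while *Ldb2*, also on the list, had at most 4 counts in a library.

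Of 15 coregulators that work with HNF4A or FOXA proteins, 13 were tested and 1 was called by edgeR, where 3.17% of all genes tested were. In this list 2 had an unadjusted p under 0.05, against 13.5% of all genes. The called gene was *Tle3*, a Groucho-family corepressor that rose. It had 3.71, 3.59 and 3.94 FPKM in the Hnf3a group and 3.00, 3.04 and 3.05 FPKM in the pcDNA group, with no overlap. Its log2 fold change was 0.30 (SE 0.049, edgeR adjusted p = 0.00341), and in 3 limma fits it missed the threshold (adjusted p 0.0741 to 0.0961). *Tle5* had 34.5 and 32.2 FPKM, *Ep300* 14.0 and 13.6 FPKM, and *Ncoa3* 11.8 and 12.1 FPKM.

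The line was epithelial by its markers, with *Cdh1* at 112.3 and 106.7 FPKM, *Epcam* at 103.8 and 104.2 FPKM and *Krt8* at 148.1 and 141.7 FPKM in the Hnf3a and pcDNA groups. *Krt18* (log2 fold change 0.20) and *Krt19* (0.21) were called higher by edgeR. Markers of mature proximal tubule were close to absent. *Lrp2* had 0.0344 and 0.0260 FPKM, *Cubn* 0.0485 and 0.0312 FPKM, and *Slc5a2* was at the floor in all libraries, while *Aqp1* had 1.13 and 0.944 FPKM and *Cdh6*, a cadherin of the early tubule, 10.7 FPKM in the Hnf3a group (log2 fold change 0.09, edgeR adjusted p = 0.465). *Alpl*, a brush border phosphatase, fell from 1.38 to 0.635 FPKM (log2 fold change −1.13, edgeR adjusted p = 0.000535), the only called one of 7 tested. The other 6 had log2 fold changes above 0 and did not pass, and the median of the 7 was 0.24. Hepatocyte markers summed to 5.52 to 8.80 FPKM in the Hnf3a group and 8.14 to 14.0 FPKM in the pcDNA group. By edgeR 0 of 7 were called and 3 had an unadjusted p under 0.05, against 13.5% of all genes. Their median log2 fold change was −0.72, with 6 below 0 and 1 above. Macrophage and blood markers summed to 35.3 to 41.9 FPKM and 49.0 to 51.7 FPKM, in the Hnf3a and pcDNA groups. The lower sum came with *Cd14*, at 22.7 against 36.6 FPKM (log2 fold change −0.69, edgeR adjusted p = 2.63e-06), while the other 5 of 6 tested had log2 fold changes above 0 and did not pass, for a median of 0.65. Collecting duct markers summed to 3.99 to 4.78 FPKM and 4.97 to 5.90 FPKM, with *Aqp3* called lower and *Scnn1g* higher of 3 tested. Endothelial markers summed to 1.76 to 2.14 FPKM and 2.57 to 2.73 FPKM, with *Cdh5* called lower and *Tek* higher of 5 tested. Sums were higher in the Hnf3a group, without overlap, for general epithelium (1010.0 to 1015.9 FPKM against 944.2 to 959.5 FPKM), podocyte (46.5 to 46.98 FPKM against 43.1 to 45.5 FPKM) and loop of Henle and distal tubule markers (1.51 to 1.86 FPKM against 1.27 to 1.36 FPKM). For general epithelium 2 of 6 tested were called, for podocyte 0 of 3, and for loop of Henle and distal tubule 0 of 1. Over all genes tested, 3.17% were called. The part of these marker differences in the member values was not tested.

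The genes whose log2 CPM (counts scaled to library size) rose and fell most like each tested member were found by Pearson's r over the 6 libraries. For *Foxa1* they were *Srd5a1* (r = 0.997), *Scpep1* (0.996) and *Srsf9* (0.996), and r there reflects the gap between the groups. For *Pax8* they were *Tmem80* (0.997), *Irf2bpl* (0.995) and *Gon7* (0.994), and for *Pax2* they were *Ube2a* (0.994), *Msh5* (0.994) and *Acsl1* (0.993). The low members, each with few fragments, were followed most closely by *Hs3st3b1*, *Gtpbp10* and *Rbm26* (*Foxa2*), *Gm19557*, *Caprin1* and *Ppip5k2* (*Foxa3*), *Kcnk10*, *Rab9* and *Gm38155* (*Hnf4a*), and *Clca3a2*, *Fbxo47* and *Yju2* (*Hnf4g*), with r between 0.978 and 0.999. With 6 libraries and 13338 genes compared, these are descriptions.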

How the data were processed

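Libraries of polyadenylated RNA came from 6 TKPTS cultures, 3 per group by the labels. Per the submitters' processing notes the tools included cutadapt 1.9, HISAT2 2.0.4, UMI-tools, StringTie 1.3.4d, DESeq2 and edgeR with build mm10, with no order or settings. The authors deposited FPKM values and an estimated count, a whole number, per gene and library. Genes in the table had coordinates identical to GENCODE vM21 (GRCm38) for 25765 of 29514 shared genes and 7 of 8 members. Strand use in counting is not given in the sources used here.

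Counts were filtered with filterByExpr, scaled by TMM and tested two-sided with edgeR 4.0.16 (robust quasi-likelihood, R 4.3.3), with Benjamini-Hochberg adjustment over all 17824 tested genes and a threshold of 0.05. Alternatives used limma 3.58.1 and DESeq2 1.42.0. With 3 against 3 an exact permutation test cannot go below p = 0.1. The detection floor of 12 counts is 0.168 to 0.199 CPM and covers counting error only. The fitting scripts were tested on simulated data. The members and lists were chosen with earlier results of these data known. Named genes were the members, genes within 10 kb, called list genes and up to 4 further abundant ones, and up to 3 genes most like each member. Genes outside that rule were chosen after their values were seen. A few items that the rule names are not reported here.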

Additional observations from a re-analysis of the deposited data

How the results depend on the processing

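*Foxa1* was the only member past the threshold in all alternatives (2 members tested at a minimum of 1 FPKM and 3 with counts divided by 4), at 4.84 to 5.02 on the log2 scale. With counts divided by 4, *Foxa2*, *Foxa3*, *Hnf4a* and *Hnf4g* were too low to test. Their intervals above rest on undivided counts. Same-numbered libraries did not deviate together (r −0.041, −0.010 and 0.00998), and the main fit did not pair them. These values cannot decide whether same-numbered cultures were set up together, since paired cultures may also show no shared deviation. A replicate block gave 463 calls in place of 565, and *Pax2* had a log2 fold change of 0.89 with adjusted p 0.266. Over all genes, limma gave 236 (pseudocount 0.1), 231 (pseudocount 1) and 245 (pseudocount 0.01) calls, and leaving out 1 library gave 263 to 643 (263 without Hnf3a replicate 2, and 286, 267 and 349 without pcDNA replicates 1, 2 and 3). In the renal lineage list, 3 genes passed at 1 FPKM in 3 libraries and with the DESeq2 Wald test (*Ehf*, *Irx3* and *Mecom*), and 2 with counts divided by 4. In the coregulators the count was 0 in all 3 limma fits. Without Hnf3a replicate 1, *Ssbp4* passed (adjusted p 0.0419), so the LHX1 cofactors went from 0 to 1. The cause was not tested.

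Leaving out 1 library changed the sign of 4 members that never passed: *Foxa2* ranged from −0.12 to 0.43 (negative without Hnf3a replicate 2, pcDNA replicate 1 or pcDNA replicate 3), *Foxa3* from −0.62 to 0.19 (positive without Hnf3a replicate 3 or pcDNA replicate 1), *Hnf4a* from −0.76 to 0.20 (positive without Hnf3a replicate 2 or pcDNA replicate 2) and *Pax8* from −0.025 to 0.070 (negative without Hnf3a replicate 1 or pcDNA replicate 1). The first 3 rest on at most 49 counts a library, which limits any statement on them.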
